A study of Mus musculus with 70 samples.

Results

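RNA of sorted CD45+ cells, which are leukocytes, was compared on day 3 between the histotripsy-treated tumor and the untreated tumor on the other flank, the histotripsy-abscopal tumor. Members were all libraries of CD45+ cells that the labels place in these 2 groups on day 3: 6 histotripsy-treated and 7 histotripsy-abscopal libraries, 13 of the 70 libraries of the series. B16F10 cells, a melanoma line of C57BL/6 mice, were grown under the skin of both flanks of male and female C57BL/6 mice. Histotripsy, a mechanical ablation by pulses of focused ultrasound, was aimed at most but not all of a single tumor, and the abscopal tumor received no ultrasound. All animals of both groups therefore carried a partly ablated tumor, and the comparison separates the local from the distant site. The other 4 day 3 libraries came from control tumors of mice that had sham ablation, and their values are given as the background level. Groups were assigned without randomization, and neither sex, animal nor batch is given for a library. A treated and an abscopal tumor may come from the same mouse, which the labels do not record, and p-values measure the spread between these libraries.

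Mechanical tissue damage releases cell contents that macrophages, monocytes and dendritic cells sense through pattern recognition receptors. Receptor signaling through NF-kB induces interleukin-1, Tnf and CXC chemokines such as the ligands of Cxcr2 on neutrophils, and the same signal induces its own inhibitors. Neutrophils enter injured tissue first, and monocytes and macrophages then remove debris and supply growth factors for repair. T cells and NK cells, which kill tumor cells, are part of the same CD45+ sort, and every level is a share of the RNA of all CD45+ cells.

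Depth was 1186404 to 1658775 counts per library in treated tumors and 1104207 to 2824959 in abscopal tumors. Ptprc, which encodes CD45, was at 726 to 1094 CPM (median 884) in treated and 769 to 1188 CPM (median 949.6) in abscopal libraries, and its groups overlapped (log2 fold change -0.10 ± 0.13, adjusted p = 0.77). Throughout, ± is the standard error, and adjusted p-values come from edgeR's quasi-likelihood test. A log2 ratio is the same quantity as a log2 fold change, treated over abscopal. Levels are CPM, counts scaled to a common library size with TMM factors. Treated replicate 3 stood apart: its summed neutrophil markers were at 35956 CPM against 1273 to 8836 CPM in the other treated libraries, and it also had the highest erythroid (9641 CPM) and platelet (1730 CPM) sums and the lowest T cell (779 CPM) and NK cell (300.2 CPM) sums of its group. Abscopal replicates 1 and 4 had melanoma marker sums of 1227 and 2302 CPM, against 93.1 to 304 CPM in the other abscopal libraries. The counts over all genes are therefore given with and without these libraries, and counts of a list use all libraries unless stated. Where a log2 fold change in the text belongs to a call that was lost without treated replicate 3, the value without it follows. Summed neutrophil markers were at 1273 to 35956 CPM (median 4981) in treated and 812 to 2784 CPM (median 1587) in abscopal libraries, with controls at 344 to 2528 CPM. T cell markers ran the other way, with 779 to 2124 CPM (median 1543) in treated and 2069.5 to 2677 CPM (median 2415) in abscopal libraries. T cell markers of controls were at 2293 to 2815 CPM. Both the neutrophil and the T cell sums overlapped between treated and abscopal libraries. Monocyte and macrophage sums overlapped too, at 3131 to 6493 and 4423 to 5781 CPM. In RNA of sorted bulk cells, fewer cells of a type and less RNA per cell cannot be told apart.

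**Figure D1:**
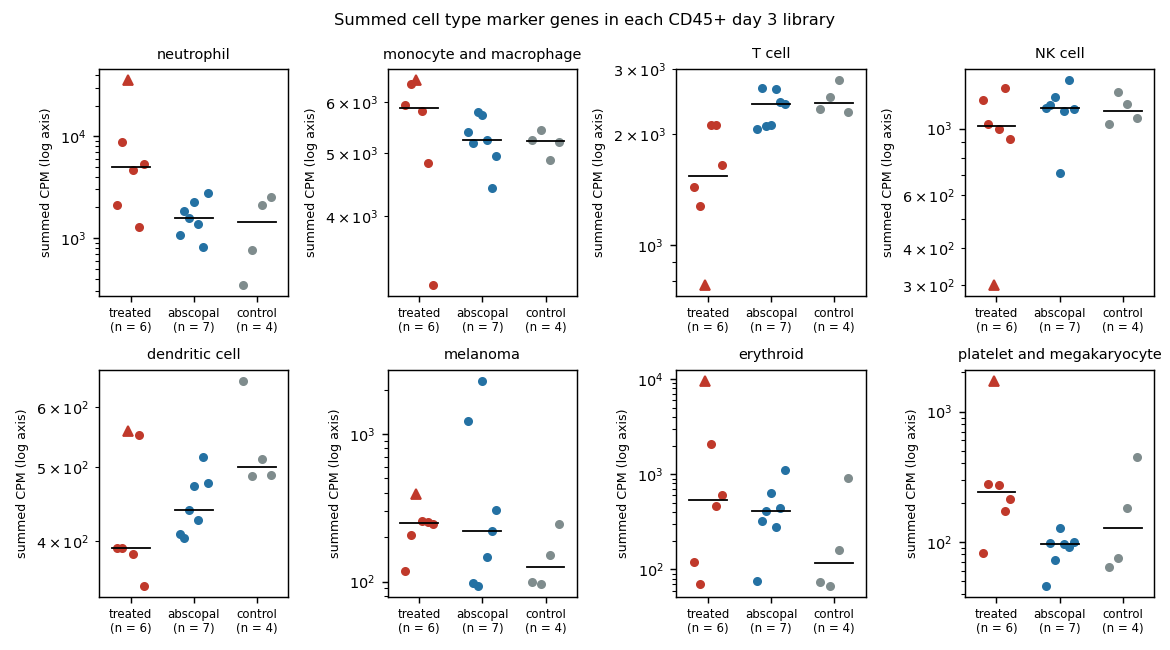
Summed CPM of marker genes of 8 cell types (log axis) in each CD45+ day 3 library, with 1 point per library, a bar at the group median and a triangle for treated replicate 3. Neutrophil sums reached 35956 CPM in treated and 2784 CPM in abscopal libraries, and T cell sums were at 779 to 2124 CPM in treated and 2069.5 to 2677 CPM in abscopal libraries.

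Of 10264 genes tested, 500 were higher and 58 lower in treated than in abscopal tumors, which is 5.44% of the genes tested, 4.87% higher and 0.565% lower. Of these, 298 were more than 2-fold higher and 6 more than 2-fold lower, and for 102 of the higher and 18 of the lower genes no treated library overlapped an abscopal library, against 1.33% of all tested genes. The shares of 4.87% higher and 0.565% lower are the background for the counts of list members given with each group. The median log2 fold change over all genes was -0.03. Scaled by library totals instead of TMM, that median was -0.15, and the split was 345 higher and 89 lower genes. Without treated replicate 3, 252 genes were higher and 12 lower, and 262 of these 264 were among the 558. Without that library and abscopal replicates 1 and 4, 197 genes were higher and 24 lower. Without treated replicate 5, the count was 862. In all 13 fits that each left out 1 library, 233 of the higher and 8 of the lower genes kept their call. On the first principal component, which held 36.7% of the variance of the 500 most variable genes, treated libraries lay from -2.46 to 22.7 and abscopal libraries from -19.3 to -3.98, with no overlap.

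**Figure D2:**
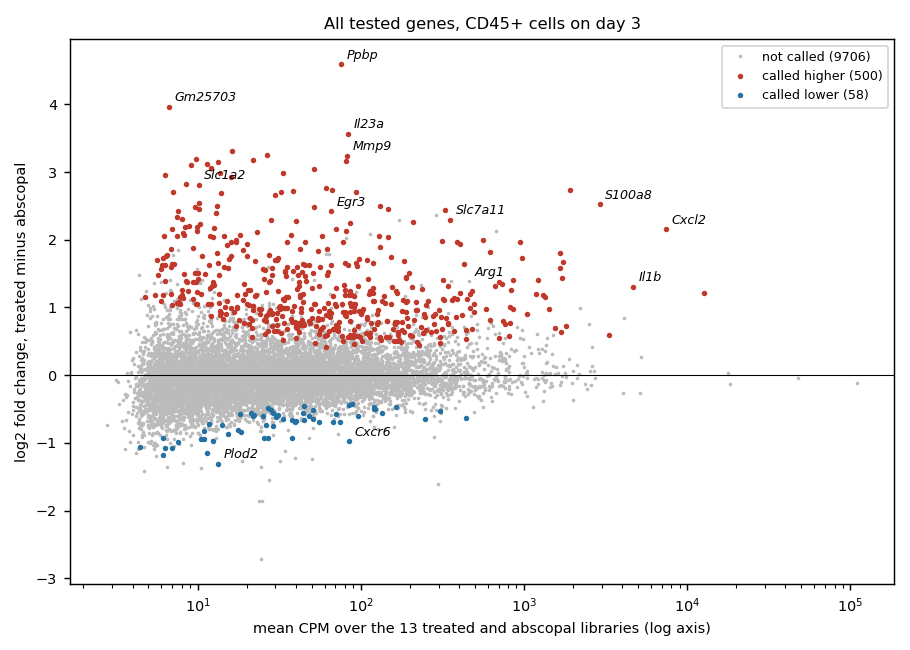
Log2 fold change, treated minus abscopal, against the mean CPM over the 13 libraries (log axis), with 1 point per tested gene. The 500 genes called higher reach a log2 fold change of 4.59 (Ppbp), and the 58 called lower reach -1.31 (Plod2).

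The listed CXC chemokines were higher in treated tumors: 5 of 5 tested members were called, against 4.87% of all genes, and their median log2 fold change was 2.45 against -0.03 over all genes. Cxcl1, Cxcl2, Cxcl3 and the processed form of Ppbp recruit neutrophils through Cxcr2, while Pf4, whose own value is the median, is not a ligand of that receptor. Cxcl1, Cxcl2 and Cxcl3 belong to a chemokine cluster on chromosome 5. The 90 bases from position 120 to position 31 before their RefSeq starts (GRCm38.p6, plus strand, chr5:90891125-90891214, chr5:90903779-90903868 and chr5:90785981-90786070) are shown because each of them holds GGG, any 2 bases and TTTCC, a form of the site that NF-kB binds, on either strand. Capitals mark the matches.
Cxcl1: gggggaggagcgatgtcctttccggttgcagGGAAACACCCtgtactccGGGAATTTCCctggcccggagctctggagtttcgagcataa
Cxcl2: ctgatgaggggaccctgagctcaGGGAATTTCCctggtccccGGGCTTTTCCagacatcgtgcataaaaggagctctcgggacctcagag
Cxcl3: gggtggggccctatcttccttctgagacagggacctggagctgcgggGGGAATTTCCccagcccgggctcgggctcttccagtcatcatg
GGGAATTTCC stands in each of them, from position 71 to 62 before the start in Cxcl1, 97 to 88 in Cxcl2 and 73 to 64 in Cxcl3. In the 250 bases before the start, this pattern was found on either strand in 1.41% of all 32851 RefSeq promoter windows, in 3.97% of the 378 genes called higher that have a window and in 1.82% of the 7693 tested genes that have one. A match is a stretch of letters, and binding was not measured.

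Cxcl2 was at 3856 to 29888 CPM (median 10636) in treated and 1705 to 4064 CPM (median 2932) in abscopal libraries, with controls at 1517 to 4696 CPM (log2 fold change 2.16 ± 0.41, adjusted p = 0.0033). The lowest treated library overlapped the highest abscopal library, and 5 of the 6 treated libraries lay above every abscopal library. Without treated replicate 3 the log2 fold change was 1.69 (adjusted p = 0.010). Cxcl1 was at 129.8 to 1237 CPM (median 539) in treated and 34.4 to 152 CPM (median 113) in abscopal libraries (log2 fold change 2.44 ± 0.48, adjusted p = 0.0039), and the log2 fold change was 2.06 without treated replicate 3, adjusted p = 0.014. Cxcl3, at 13.6 to 412 CPM (median 52.1) in treated and 0 to 40.0 CPM (median 15.3) in abscopal libraries, rested more on that library (log2 fold change 2.76 ± 0.69, adjusted p = 0.020, and 1.70 without treated replicate 3, adjusted p = 0.15). Ppbp and Pf4, chemokines stored in platelets, were called as well. Ppbp had 0 to 842 CPM (median 26.7) in treated and 1.88 to 13.6 CPM (median 3.57) in abscopal libraries (log2 fold change 4.59 ± 1.10, adjusted p = 0.015), and its log2 fold change was 1.73 without treated replicate 3, adjusted p = 0.33. Pf4 was at 41.6 to 862 CPM (median 169) in treated and 15.2 to 93.3 CPM (median 47.8) in abscopal libraries, at a log2 ratio of 2.45 (adjusted p = 0.011), and 1.57 without treated replicate 3, adjusted p = 0.064. Summed platelet markers, which include both genes, were at 81.6 to 1730.3 CPM in treated and 45.6 to 128 CPM in abscopal libraries, and their part in the result was not tested. Without treated replicate 3, 2 of the 5 genes, Cxcl1 and Cxcl2, kept the call. Cxcl1, Cxcl2 and Cxcl3 are close paralogs, and how reads matching several genes were counted is not given in the sources used here.

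Among CC chemokines, 1 of 11 was called higher, Ccl3, a chemokine made by activated myeloid cells. Ccl3 was at 1181 to 4986 CPM (median 2473) in treated and 599.6 to 1086 CPM (median 806) in abscopal libraries, controls were at 606 to 1135 CPM, and no treated library overlapped an abscopal library (log2 fold change 1.68 ± 0.26, adjusted p = 0.00086). Its receptor Ccr1 was called too, at 108 to 566 CPM (median 258) in treated and 86.6 to 139 CPM (median 97.5) in abscopal libraries (log2 fold change 1.45 ± 0.29, adjusted p = 0.0047). The monocyte attractants Ccl2 and Ccl7 showed log2 ratios of 0.27 (adjusted p = 0.79) and 0.70 (adjusted p = 0.31), and the list's median was 0.70. Chemokines that attract T cells were not called: 0 of 6 passed edgeR's test, 0 had an unadjusted p under 0.05, and DESeq2 and limma-voom called 0. Cxcl9 stood at a log2 ratio of -0.50 (adjusted p = 0.44) and Cxcl10 at 0.04 (adjusted p = 0.94).

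Neutrophil genes rose as well. Of 17 tested members of the granule, alarmin and receptor list, 13 were called higher and 0 lower, the list's median was 2.06, and without treated replicate 3 the count was 7 and the median 1.52. The list shares members with the neutrophil markers, whose sum was given above, so the sum is no separate evidence. The sum over the list was at 2155 to 41506 CPM (median 7661) in treated and 1293 to 3883 CPM (median 2213) in abscopal libraries, and the groups overlapped. S100a8, a subunit of the alarmin calprotectin, was at 757 to 19025 CPM (median 2846) in treated and 456 to 1420.4 CPM (median 858) in abscopal libraries, with controls at 186 to 1422 CPM (log2 fold change 2.52 ± 0.59, adjusted p = 0.013). The log2 fold change was 1.45 without treated replicate 3, adjusted p = 0.092, and 4 of 6 treated libraries lay above every abscopal library. S100a9, the other subunit, showed a log2 ratio of 2.73 (adjusted p = 0.013), and 1.37 without treated replicate 3, adjusted p = 0.11. Cxcr2, the receptor of Cxcl1, Cxcl2 and Cxcl3, was at 12.96 to 165 CPM (median 52.1) in treated and 3.97 to 21.0 CPM (median 8.91) in abscopal libraries (log2 fold change 2.72 ± 0.54, adjusted p = 0.0042) and the log2 fold change was 2.28 without treated replicate 3, adjusted p = 0.017. Csf3r, the receptor for G-CSF, showed a log2 ratio of 2.06 (adjusted p = 0.0075) and kept the call without treated replicate 3 at 1.504 (adjusted p = 0.036). Trem1, which amplifies Toll-like receptor signals on neutrophils and monocytes, was at 85.2 to 813 CPM (median 313) in treated and 37.9 to 129 CPM (median 73.8) in abscopal libraries (log2 fold change 2.27 ± 0.43, adjusted p = 0.0031).

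Mmp9, the gelatinase of neutrophil tertiary granules that macrophages also make, separated the groups. Mmp9 was at 47.5 to 390.2 CPM (median 103) in treated and 6.58 to 26.8 CPM (median 16.6) in abscopal libraries, with controls at 3.71 to 29.9 CPM, and all 6 treated libraries lay above every abscopal library (log2 fold change 3.24 ± 0.46, adjusted p = 0.00049, and 2.74 without treated replicate 3, adjusted p = 0.0010). Hdc, which makes histamine, was at 386 to 1827 CPM (median 899) in treated and 137 to 344 CPM (median 228) in abscopal libraries, again with no overlap (log2 fold change 1.996 ± 0.31, adjusted p = 0.00086). Padi4, which citrullinates histones in neutrophils, did not overlap either (log2 fold change 1.64 ± 0.35, adjusted p = 0.0075, and below the filter without treated replicate 3). Fpr1 and Fpr2, receptors for formylated bacterial and mitochondrial peptides, showed log2 ratios of 2.73 (adjusted p = 0.0080, and 1.56 without treated replicate 3, adjusted p = 0.050) and 1.90 (adjusted p = 0.0029). Lcn2, an iron-scavenging granule protein, was at 4.32 to 432 CPM (median 34.3) in treated and 6.84 to 44.6 CPM (median 11.7) in abscopal libraries, at a log2 ratio of 3.16 (adjusted p = 0.013), and 2.52 without treated replicate 3, adjusted p = 0.059. Ngp, a granule protein of neutrophil precursors, showed a log2 ratio of 0.20 (adjusted p = 0.93), and Ltf, Camp, Mpo, Elane, Cxcr1 and Ly6g, the surface marker that defines mouse neutrophils, had too few counts to be tested.

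Interleukin-1 genes rose on the ligand side, on the inhibitor side and at the sensor. Of 16 tested genes of the family and the inflammasome, 6 were called higher and 1, Il18r1, lower at -0.64 (adjusted p = 0.046, and -0.53 without treated replicate 3, adjusted p = 0.12), and the median log2 fold change was 0.46. Il1b was at 3641 to 10791 CPM (median 6162) in treated and 2022 to 3662 CPM (median 2758) in abscopal libraries, with controls at 2581 to 3452 CPM, and 5 of 6 treated libraries lay above every abscopal library (log2 fold change 1.30 ± 0.21, adjusted p = 0.0012). Il1a, the form released by damaged cells, was at 33.9 to 333 CPM (median 97.8) in treated and 17.8 to 52.8 CPM (median 32.3) in abscopal libraries (log2 fold change 1.97 ± 0.43, adjusted p = 0.0079, and 1.44 without treated replicate 3, adjusted p = 0.038). Il1rn, the antagonist that blocks the receptor, was at 1039 to 2867 CPM (median 1867) in treated and 553 to 1136 CPM (median 803) in abscopal libraries (log2 fold change 1.19 ± 0.20, adjusted p = 0.0013), and Il1r2, a decoy receptor, showed a log2 ratio of 1.64 (adjusted p = 0.0014). Il1rap, the shared receptor subunit, showed a log2 ratio of 1.77 (adjusted p = 0.0047). Nlrp3, the sensor that assembles the inflammasome, was at 223 to 1144 CPM (median 439.8) in treated and 90.1 to 178 CPM (median 133) in abscopal libraries with no overlap (log2 fold change 1.98 ± 0.31, adjusted p = 0.00095, and 1.59 without treated replicate 3, adjusted p = 0.0015). Other parts of that machinery were not called, at log2 ratios of -0.01 (adjusted p = 0.98) for Casp1, -0.01 (adjusted p = 0.98) for Pycard and 0.13 (adjusted p = 0.77) for Gsdmd. Il18, which the same protease activates, showed a log2 ratio of -0.43 (adjusted p = 0.29).

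The rise around the interleukin-1 ligands was not restricted to their coding genes, a feature noticed after the values were seen. On chromosome 2, 11 tested genes lie in the stretch from Polr1b to Il1bos, of which 7 were called higher and 0 lower, in a stretch chosen after the values were seen and against 4.87% of all genes called higher: Gm4430, Slc20a1, Ckap2l, Gm14023, Il1a, Gm25703 and Il1b. Gm25703, annotated as a small nuclear RNA between Il1a and Il1b (GRCm38, GENCODE vM21, chr2:129315329-129315479, minus strand), was at 3.09 to 27.3 CPM (median 13.6) in treated and 0 to 2.10 CPM (median 0.524) in abscopal libraries, with no overlap (log2 fold change 3.97 ± 0.59, adjusted p = 0.00070, and below the filter without treated replicate 3). Gm4430 was at 9.26 to 21.4 CPM (median 12.3) in treated and 0.446 to 3.21 CPM (median 2.10) in abscopal libraries, also with no overlap (log2 fold change 2.70 ± 0.32, adjusted p = 0.00019). Of its 2 annotation records, chr2:129197252-129199194 overlaps the start of Slc20a1 on the other strand, and chr2:129196086-129197126 does not. The record that was counted is not given in the sources used here. Slc20a1, a phosphate transporter, was at 181 to 473 CPM (median 282) in treated and 112 to 184 CPM (median 154) in abscopal libraries (log2 fold change 0.97 ± 0.19, adjusted p = 0.0039). Gm14023 overlaps Il1a on the other strand (log2 fold change 1.54 ± 0.37, adjusted p = 0.017, and 1.21 without treated replicate 3, adjusted p = 0.075), and Il1bos, antisense to Il1b, stood at a log2 ratio of 1.24 (adjusted p = 0.064). The strand setting of the counting is not given in the sources used here, so reads of overlapping partners cannot be told apart. Of the other genes of the stretch, Polr1b, Chchd5 and Gm14029 showed log2 ratios of -0.26 (adjusted p = 0.70), -0.09 (adjusted p = 0.88) and -0.47 (adjusted p = 0.49), and that of Ckap2l was 0.98 (adjusted p = 0.018, and 0.91 without treated replicate 3, adjusted p = 0.059).

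Tnf and the feedback genes of NF-kB followed the same direction. Of 18 tested, 8 were called higher, 0 lower, all 18 had a positive log2 fold change, and the median was 0.64. Tnf was at 855 to 3396 CPM (median 1815) in treated and 393 to 961 CPM (median 639.9) in abscopal libraries, with controls at 681 to 1158 CPM and 5 of 6 treated libraries above every abscopal library (log2 fold change 1.41 ± 0.27, adjusted p = 0.0033). Nfkbia, which encodes the inhibitor that holds NF-kB in the cytoplasm, was at 10724 to 30539 CPM (median 16656) in treated and 5183 to 8972 CPM (median 8495) in abscopal libraries with no overlap (log2 fold change 1.21 ± 0.22, adjusted p = 0.0023). Ier3, an early gene that limits apoptosis, was at 1458 to 3928 CPM (median 2495) in treated and 762 to 1044 CPM (median 817) in abscopal libraries, also with no overlap (log2 fold change 1.59 ± 0.22, adjusted p = 0.00049). Nfkbiz, a nuclear cofactor, showed a log2 ratio of 1.16 (adjusted p = 0.0034), Tnfaip2 1.83 (adjusted p = 0.00070), Icam1 1.15 (adjusted p = 0.0080) and Tnip1 0.84 (adjusted p = 0.012). The subunits of the factor itself were not called, at a log2 ratio of 0.36 (adjusted p = 0.28) for Nfkb1, with Nfkb2 at 0.27 (adjusted p = 0.21), Rel at 0.27 (adjusted p = 0.39) and Relb at 0.30 (adjusted p = 0.41). Without treated replicate 3, 7 of the 8 calls held. The call of Sod2, a mitochondrial superoxide dismutase, did not, at a log2 ratio of 0.97 (adjusted p = 0.018, and 0.72 without treated replicate 3, adjusted p = 0.072).

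Some receptors for microbial and damage signals were higher. Of 19 Toll-like receptor and adaptor genes, 6 were called, Tlr2, Tlr4, Tlr6, Tlr13, Irak2 and Irak3, with a list median of 0.23. Tlr13, which recognizes bacterial ribosomal RNA, was at 47.6 to 322 CPM (median 96.2) in treated and 37.7 to 47.5 CPM (median 41.5) in abscopal libraries with no overlap (log2 fold change 1.63 ± 0.35, adjusted p = 0.0073). Tlr6, a partner of Tlr2, was at 11.1 to 72.5 CPM (median 30.5) in treated and 9.87 to 17.2 CPM (median 11.99) in abscopal libraries (log2 fold change 1.55 ± 0.34, adjusted p = 0.0090), and Tlr4, the endotoxin receptor, showed a log2 ratio of 1.18 (adjusted p = 0.018, and 0.76 without treated replicate 3, adjusted p = 0.072). Tlr2, a receptor for lipoproteins, was at a log2 ratio of 0.87 (adjusted p = 0.030, and 0.58 without treated replicate 3, adjusted p = 0.12), and the kinase Irak2 at 0.94 (adjusted p = 0.023, and 0.81 without treated replicate 3, adjusted p = 0.083). Irak3, which restrains signaling downstream of these receptors, was at 12.96 to 80.4 CPM (median 30.3) in treated and 7.99 to 16.1 CPM (median 12.9) in abscopal libraries (log2 fold change 1.57 ± 0.34, adjusted p = 0.0077), while the shared adaptor Myd88 stood at a log2 ratio of 0.33 (adjusted p = 0.30). Without treated replicate 3, 3 of these calls held, and without all 3 libraries that stood apart 0 did. Among lectin receptors, named after their values were seen, Clec4e, which senses dead cells and mycobacterial glycolipid, was at 563 to 3074 CPM (median 1473) in treated and 323 to 732 CPM (median 437) in abscopal libraries (log2 fold change 1.74 ± 0.30, adjusted p = 0.0016). Hcar2, a receptor for nicotinic acid and ketone bodies, was at 569 to 2703 CPM (median 1394) in treated and 235 to 548 CPM (median 389) in abscopal libraries and did not overlap (log2 fold change 1.97 ± 0.28, adjusted p = 0.00059).

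Csf1, Csf3 and Acod1 belong to none of the lists and were chosen after their values were seen, so they stand for no group. Csf1, the growth factor of macrophages, was at 36.4 to 295 CPM (median 137) in treated and 15.7 to 42.5 CPM (median 38.4) in abscopal libraries (log2 fold change 2.24 ± 0.41, adjusted p = 0.0023, and 1.92 without treated replicate 3, adjusted p = 0.0072). Csf3, which encodes G-CSF, was at 3.09 to 23.1 CPM (median 16.3) in treated and 0.922 to 4.64 CPM (median 3.57) in abscopal libraries (log2 fold change 2.07 ± 0.40, adjusted p = 0.0033, and 1.87 without treated replicate 3, adjusted p = 0.012). Il23a, the alpha subunit of interleukin-23, was at 45.9 to 359.9 CPM (median 159) in treated and 6.45 to 23.9 CPM (median 12.9) in abscopal libraries, with controls at 2.78 to 32.9 CPM, and no treated library overlapped an abscopal library (log2 fold change 3.56 ± 0.48, adjusted p = 0.00034, and 3.17 without treated replicate 3, adjusted p = 0.00083). Il12b, the subunit that interleukin-23 shares with interleukin-12, stood at a log2 ratio of -0.64 (adjusted p = 0.24), and Il6 at 0.30 (adjusted p = 0.74). Acod1, which makes itaconate in activated macrophages, was at 784 to 6235 CPM (median 2371) in treated and 461 to 1339 CPM (median 672) in abscopal libraries (log2 fold change 1.80 ± 0.34, adjusted p = 0.0031).

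Enzymes of lipid mediators rose in several branches. Of 15 tested eicosanoid genes, 7 were called higher, with a median of 0.55. Alox5, the entry enzyme of leukotriene synthesis, was at 9.26 to 34.7 CPM (median 21.8) in treated and 0.5262 to 7.05 CPM (median 5.35) in abscopal libraries with no overlap (log2 fold change 2.17 ± 0.37, adjusted p = 0.0014, and 2.03 without treated replicate 3, adjusted p = 0.0043). Its helper protein Alox5ap was at 663 to 1562 CPM (median 941) in treated and 446 to 750.1 CPM (median 607) in abscopal libraries (log2 fold change 0.76 ± 0.18, adjusted p = 0.013). Ptgs1, the constitutive cyclooxygenase, was at 4.94 to 28.3 CPM (median 11.6) in treated and 0 to 3.92 CPM (median 2.35) in abscopal libraries, also with no overlap (log2 fold change 2.34 ± 0.41, adjusted p = 0.0018). Ptgs2, the inducible form, showed a log2 ratio of 1.14 (adjusted p = 0.022) and the log2 fold change was 0.76 without treated replicate 3, adjusted p = 0.10. Ltb4r1, the leukotriene B4 receptor that guides neutrophils, showed a log2 ratio of 0.93 (adjusted p = 0.033, and 0.74 without treated replicate 3, adjusted p = 0.13). Alox15, made by eosinophils and some macrophages, was at 5.44 to 47.6 CPM (median 16.7) in treated and 0 to 21.6 CPM (median 2.10) in abscopal libraries (log2 fold change 2.06 ± 0.61, adjusted p = 0.049, and 2.15 without treated replicate 3, adjusted p = 0.072), and Siglecf, a marker of eosinophils that was named after its values were seen, at 3.70 to 26.9 CPM (median 13.1) in treated and 0.357 to 8.46 CPM (median 1.78) in abscopal libraries (log2 fold change 2.31 ± 0.49, adjusted p = 0.0070). Summed markers of basophils, mast cells and eosinophils were at 33.3 to 80.7 CPM in treated and 17.8 to 60.1 CPM in abscopal libraries. Of these 11 markers 3 were tested, and 1, Siglecf, was called. Of the 3 tested, 2 were higher and 1 was lower, the latter with an unadjusted p under 0.05 by edgeR. Epx was at 0 in all 13 libraries, and Prg2 and Il5ra had too few counts to be tested.

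Of genes linked to alternative macrophage activation, 3 of 13 were called higher, with a median of 0.74. Tgm2, a transglutaminase, was at 419.9 to 1061 CPM (median 668) in treated and 266 to 389 CPM (median 343) in abscopal libraries, with controls at 251 to 335 CPM and no overlap between the groups (log2 fold change 1.06 ± 0.19, adjusted p = 0.0018). Mrc1, the mannose receptor, was at 39.1 to 162 CPM (median 79.3) in treated and 20.3 to 53.5 CPM (median 30.4) in abscopal libraries (log2 fold change 1.31 ± 0.27, adjusted p = 0.0060). Clec10a, a galactose lectin, showed a log2 ratio of 0.87 (adjusted p = 0.036, and 0.78 without treated replicate 3, adjusted p = 0.11) and kept its call in 5 of the 13 fits that each left out 1 library, with log2 values 0.75 to 0.99. Arg1, the arginase that depletes arginine, was at 307 to 2185 CPM (median 443) in treated and 120.3 to 359 CPM (median 303) in abscopal libraries, with the highest value in treated replicate 3 (log2 fold change 1.39 ± 0.46, adjusted p = 0.082, and 0.57 without treated replicate 3, adjusted p = 0.50). Retnla, a secreted protein induced by interleukin-4, was at 51.8 to 292 CPM (median 129) in treated and 2.77 to 139 CPM (median 13.7) in abscopal libraries and missed the threshold (log2 fold change 2.03 ± 0.61, adjusted p = 0.056).

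Of genes of lipid-loaded macrophages, 2 of 22 were called higher, against 4.87% of all genes, Cd9 at 1.61 (adjusted p = 0.027, and 0.73 without treated replicate 3, adjusted p = 0.19) and Cd63 at 1.19 (adjusted p = 0.047, and 0.86 without treated replicate 3, adjusted p = 0.20), with a median of 0.31. Trem2, the lipid receptor of such cells, showed a log2 ratio of 0.21 (adjusted p = 0.75), Gpnmb -0.43 (adjusted p = 0.57) and Spp1 0.61 (adjusted p = 0.22). In CD45- cells, which include the melanoma cells, Gpnmb was at 3523 to 5818 CPM in treated and 5527 to 7202 CPM in abscopal libraries. In CD45+ cells it was at 522 CPM in abscopal replicate 4, 243 CPM in abscopal replicate 1 and 240 CPM in treated replicate 3. Without these libraries its log2 ratio was 0.0030, and the part of melanoma cells was not tested. In the efferocytosis and complement list, 3 of 15 were called, and the median of 0.11 fell to -0.01 with library totals. C3, the central complement protein, was at 109 to 477 CPM (median 324) in treated and 71.4 to 197 CPM (median 92.2) in abscopal libraries (log2 fold change 1.504 ± 0.28, adjusted p = 0.0027, and 1.44 without treated replicate 3, adjusted p = 0.0069). C5ar1, the receptor for the complement fragment C5a, was at 65.4 to 631 CPM (median 210.3) in treated and 28.4 to 91.0 CPM (median 80.2) in abscopal libraries (log2 fold change 1.75 ± 0.37, adjusted p = 0.0069), and Cfp, which stabilizes the convertase, showed a log2 ratio of 0.83 (adjusted p = 0.033, and 0.60 without treated replicate 3, adjusted p = 0.14). The C1q chains made by resident macrophages stood at 0.08, 0.11 and 0.03 for C1qa, C1qb and C1qc. Lysosomal genes gave 5 of 38 calls and a median of 0.29, led by Scarb2, a lysosomal membrane protein (log2 fold change 0.90 ± 0.19, adjusted p = 0.0070), with 3 subunits and 1 accessory protein of the proton pump. Of those 4, Atp6v1e1 showed a log2 ratio of 0.82 (adjusted p = 0.024, and 0.58 without treated replicate 3, adjusted p = 0.095), and without treated replicate 3 Scarb2 was the remaining call.

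Slc7a11, the cystine transporter subunit that supplies glutathione synthesis, was at 209 to 1633 CPM (median 463) in treated and 82.3 to 204 CPM (median 111) in abscopal libraries, with controls at 50.9 to 163 CPM. All 6 treated libraries lay above every abscopal library (log2 fold change 2.29 ± 0.37, adjusted p = 0.0010, and 1.71 without treated replicate 3, adjusted p = 0.0015). Its list of glutathione and antioxidant genes had 6 of 28 calls and a median of 0.32, and without treated replicate 3 Slc7a11 was the remaining call. Txnrd1, thioredoxin reductase, showed a log2 ratio of 0.52 (adjusted p = 0.018, and 0.44 without treated replicate 3, adjusted p = 0.059), Srxn1 0.86 (adjusted p = 0.041, and 0.72 without treated replicate 3, adjusted p = 0.14) and Osgin1 0.94 (adjusted p = 0.025, and 0.70 without treated replicate 3, adjusted p = 0.11), while the enzymes of glutathione synthesis Gclc and Gclm stood at a log2 ratio of 0.37 (adjusted p = 0.32) and 0.41 (adjusted p = 0.28). Heme and iron genes had 0 of 20 calls by edgeR and a median of 0.54, with 10 under an unadjusted p of 0.05, 1 call by DESeq2 and 0 by limma-voom. Hmox1, heme oxygenase, was at 615 to 2227 CPM (median 880.1) in treated and 474 to 1111 CPM (median 594) in abscopal libraries (log2 fold change 0.71 ± 0.30, adjusted p = 0.20). Hemoglobin messages are part of that list, and summed erythroid markers were at 70.0 to 9641 CPM in treated and 75.4 to 1112 CPM in abscopal libraries, after red cells had been lysed in the preparation.

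In all, 3 genes of the hypoxia and glycolysis list of 33 were called higher, against 4.87% of all genes, and the list's median was 0.28. Hilpda, a lipid droplet protein induced by low oxygen, was at 1374 to 2781 CPM (median 1972) in treated and 654 to 1269 CPM (median 1050.3) in abscopal libraries with no overlap (log2 fold change 0.98 ± 0.22, adjusted p = 0.011). Slc16a3, the lactate exporter, was at 222 to 893 CPM (median 327) in treated and 157 to 249.8 CPM (median 208) in abscopal libraries (log2 fold change 0.97 ± 0.23, adjusted p = 0.014, and 0.58 without treated replicate 3, adjusted p = 0.027), and Egln3 showed a log2 ratio of 1.18 (adjusted p = 0.037, and 0.71 without treated replicate 3, adjusted p = 0.19). Vegfa, the endothelial growth factor, missed the threshold at 84.9 to 198 CPM (median 162) in treated and 64.1 to 121 CPM (median 109) in abscopal libraries (log2 fold change 0.60 ± 0.18, adjusted p = 0.058). Of wound repair genes, 5 of 22 were called. Hbegf, a ligand of the epidermal growth factor receptor, was at 44.4 to 114 CPM (median 69.5) in treated and 24.0 to 60.0 CPM (median 29.6) in abscopal libraries (log2 fold change 1.05 ± 0.21, adjusted p = 0.0047). The clotting factors F10 and F7 showed log2 ratios of 1.24 (adjusted p = 0.0068) and 1.26 (adjusted p = 0.013), and Fn1, fibronectin, one of 0.88 (adjusted p = 0.021, and 0.61 without treated replicate 3, adjusted p = 0.084). Of matrix proteases and their inhibitors, 4 of 16 were called: Mmp9 above, Plaur, the urokinase receptor (log2 fold change 0.95 ± 0.20, adjusted p = 0.0070), Timp1, an inhibitor of matrix proteases (log2 fold change 1.25 ± 0.36, adjusted p = 0.044) and Serpinb2, an inhibitor of urokinase (log2 fold change 1.84 ± 0.47, adjusted p = 0.023). The log2 fold change of Timp1 was 0.86 without treated replicate 3, adjusted p = 0.21, and that of Serpinb2 1.32 without treated replicate 3, adjusted p = 0.12. In the lytic cell death list, whose median of 0.06 was -0.08 with library totals, 1 of 15 was called, Ninj1, which ruptures the plasma membrane of dying cells, at 86.4 to 381 CPM (median 191) in treated and 69.2 to 102 CPM (median 93.9) in abscopal libraries (log2 fold change 1.17 ± 0.24, adjusted p = 0.0058).

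**Figure D3:**
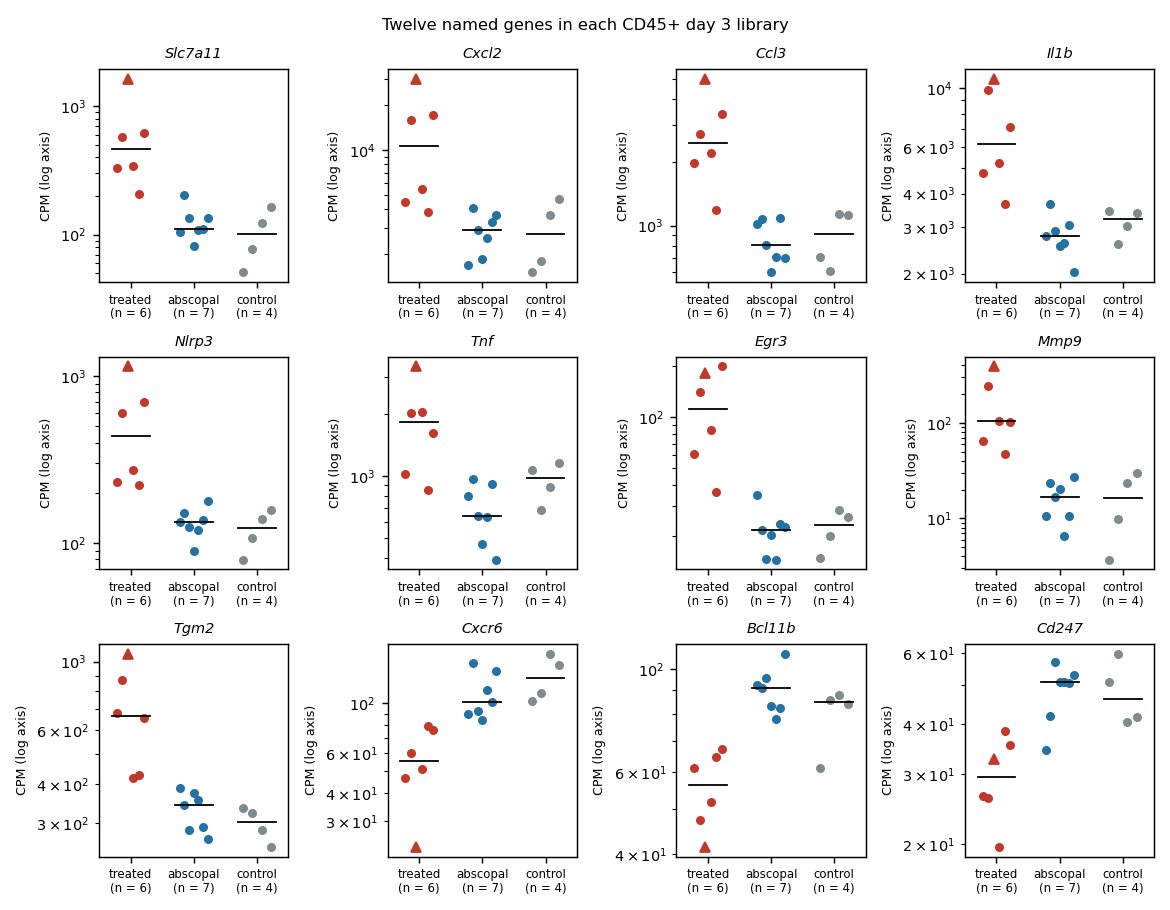
CPM of 12 named genes (log axis) in each CD45+ day 3 library, with 1 point per library, a bar at the group median and a triangle for treated replicate 3. Treated and abscopal libraries overlap for Cxcl2, Il1b, Tnf and Cd247. For Slc7a11, Ccl3, Nlrp3, Egr3, Mmp9, Tgm2, Cxcr6 and Bcl11b the treated libraries do not overlap the abscopal libraries.

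Immediate early genes, which respond to receptor signals within minutes, were higher in part: 8 of 22 were called, Fosb, Egr1, Egr2, Egr3, Ier2, Ier5, Dusp1 and Maff, and the median was 0.48. Egr3 was at 36.4 to 199 CPM (median 112) in treated and 14.6 to 35.0 CPM (median 21.8) in abscopal libraries, with controls at 14.8 to 28.5 CPM and no overlap (log2 fold change 2.42 ± 0.31, adjusted p = 0.00034, and 2.24 without treated replicate 3, adjusted p = 0.00083). Egr1 was at 823 to 2044 CPM (median 1129) in treated and 372 to 651 CPM (median 491) in abscopal libraries, also with no overlap (log2 fold change 1.41 ± 0.23, adjusted p = 0.0013). Maff, a small basic leucine zipper factor, was at 126 to 384 CPM (median 215) in treated and 73.4 to 108 CPM (median 98.6) in abscopal libraries and did not overlap either (log2 fold change 1.31 ± 0.20, adjusted p = 0.00088). Fos, Jun and Atf3 were among the members not called, at log2 ratios of -0.06 (adjusted p = 0.88), -0.03 (adjusted p = 0.95) and -0.18 (adjusted p = 0.54). Ets2, a transcription factor named after its values were seen, had a narrow abscopal range, at 633 to 1819 CPM (median 969) in treated and 407 to 453 CPM (median 428) in abscopal libraries (log2 fold change 1.35 ± 0.18, adjusted p = 0.00034).

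Of 25 tested genes of the T cell receptor complex and its coreceptors, 4 fell in treated tumors and 0 rose, against 0.565% of all genes called lower. All 25 had a negative log2 fold change, with a median of -0.53. The summed level of the list was at 1276 to 3217 CPM (median 2559.9) in treated and 3279 to 3965 CPM (median 3661) in abscopal libraries, which did not overlap. Bcl11b, a transcription factor that keeps T cell identity, was at 41.4 to 67.1 CPM (median 56.4) in treated and 78.0 to 108 CPM (median 91.0) in abscopal libraries with no overlap (log2 fold change -0.70 ± 0.14, adjusted p = 0.0042, and -0.63 without treated replicate 3, adjusted p = 0.011). Cd247, the zeta chain of the receptor, was at 19.7 to 38.3 CPM (median 29.5) in treated and 34.4 to 57.2 CPM (median 50.7) in abscopal libraries (log2 fold change -0.69 ± 0.17, adjusted p = 0.015, and -0.73 without treated replicate 3, adjusted p = 0.027). Trac, the constant region of the alpha chain, showed a log2 ratio of -0.63 (adjusted p = 0.033, and -0.51 without treated replicate 3, adjusted p = 0.064) and kept its call in 5 of the 13 fits that each left out 1 library, with log2 values -0.75 to -0.51, and Cd28, the costimulatory receptor, showed a log2 ratio of -0.56 (adjusted p = 0.047, and -0.46 without treated replicate 3, adjusted p = 0.12). Without treated replicate 3, 2 of the 4, Bcl11b and Cd247, kept the call. Cd8a was at 30.3 to 173 CPM (median 123) in treated and 137 to 248 CPM (median 198) in abscopal libraries and missed the threshold (log2 fold change -0.76 ± 0.27, adjusted p = 0.12), and Cd4 stood at a log2 ratio of -0.40 (adjusted p = 0.47). DESeq2 and limma-voom each called 7 members lower. Summed T cell and neutrophil markers moved in opposite directions between the groups, and their part in these values was not tested.

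The falling genes that separated the groups without overlap included further lymphocyte genes. Cxcr6, a homing receptor of resident and effector T cells, was at 23.1 to 79.6 CPM (median 55.5) in treated and 84.4 to 151 CPM (median 102) in abscopal libraries, with controls at 102 to 166 CPM (log2 fold change -0.97 ± 0.22, adjusted p = 0.010, and -0.82 without treated replicate 3, adjusted p = 0.016). Cd27, a costimulatory receptor, was at 25.5 to 59.9 CPM (median 55.1) in treated and 65.5 to 98.5 CPM (median 84.1) in abscopal libraries (log2 fold change -0.69 ± 0.16, adjusted p = 0.013). Dusp4, a phosphatase that dampens kinase signals, was at 10.4 to 24.1 CPM (median 16.8) in treated and 26.7 to 39.5 CPM (median 34.6) in abscopal libraries (log2 fold change -0.92 ± 0.20, adjusted p = 0.0075). Ubash3a, a brake on receptor signaling in T cells, showed a log2 ratio of -0.65 (adjusted p = 0.044, and -0.50 without treated replicate 3, adjusted p = 0.087) and Grap, an adaptor of lymphocytes, -0.51 (adjusted p = 0.022, and -0.50 without treated replicate 3, adjusted p = 0.054). Ubash3a kept its call in 2 of the 13 fits that each left out 1 library, with log2 values -0.72 to -0.50, and Grap in 10 of the 13 fits that each left out 1 library. Among genes with other roles, Slc25a4, the mitochondrial carrier that exchanges ADP and ATP, was at 65.3 to 87.8 CPM (median 73.0) in treated and 106 to 126 CPM (median 109) in abscopal libraries (log2 fold change -0.60 ± 0.12, adjusted p = 0.0055), and Cers4, a ceramide synthase, at 17.7 to 24.1 CPM (median 22.01) in treated and 26.8 to 45.2 CPM (median 33.4) in abscopal libraries (log2 fold change -0.75 ± 0.16, adjusted p = 0.0075). Smc4, a condensin subunit, showed a log2 ratio of -0.53 (adjusted p = 0.011), Gmnn, which blocks a second round of replication, -0.59 (adjusted p = 0.021, and -0.51 without treated replicate 3, adjusted p = 0.064), Nvl, a ribosome assembly ATPase, -0.61 (adjusted p = 0.041, and -0.49 without treated replicate 3, adjusted p = 0.11) and Crot, a carnitine transferase of peroxisomes, -0.57 (adjusted p = 0.045, and -0.55 without treated replicate 3, adjusted p = 0.12). Nvl kept its call in 7 of the 13 fits that each left out 1 library and Crot in 1 of the 13 fits that each left out 1 library.

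Cytotoxic and NK cell genes did not pass the test: 0 of 23 were called by edgeR, DESeq2 or limma-voom, and 2 had an unadjusted p under 0.05. In all, 22 of the 23 had a negative log2 fold change, with a median of -0.38. Gzmb, the granzyme of killer cells, was at 20.7 to 175 CPM (median 73.5) in treated and 42.3 to 279 CPM (median 134) in abscopal libraries (log2 fold change -0.79 ± 0.46, adjusted p = 0.39), and Ifng at 29.5 to 151 CPM (median 101) in treated and 87.0 to 169 CPM (median 124) in abscopal libraries (log2 fold change -0.34 ± 0.25, adjusted p = 0.51). Of checkpoint and regulatory T cell genes, 2 of 18 were called lower, Cd96 (log2 fold change -0.74 ± 0.18, adjusted p = 0.019, and -0.64 without treated replicate 3, adjusted p = 0.059) and Ikzf2 (log2 fold change -0.64 ± 0.17, adjusted p = 0.033, and -0.56 without treated replicate 3, adjusted p = 0.098), and 1, Vsir, a checkpoint carried by myeloid cells, higher (log2 fold change 0.71 ± 0.18, adjusted p = 0.022, and 0.56 without treated replicate 3, adjusted p = 0.083). None of these 3 calls held without treated replicate 3. Pdcd1 and Ctla4, targets of checkpoint antibodies, stood at a log2 ratio of -0.87 (adjusted p = 0.080) and -0.80 (adjusted p = 0.051), and Foxp3 at -0.59 (adjusted p = 0.31).

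Interferon-induced and antigen presentation genes were not called, apart from Cd80. Of type I interferon genes 0 of 32 were called by edgeR, DESeq2 or limma-voom, 5 had an unadjusted p under 0.05, and the median was -0.13. Isg15 was at 170.4 to 788 CPM (median 304) in treated and 176 to 565 CPM (median 359) in abscopal libraries (log2 fold change 0.11 ± 0.30, adjusted p = 0.89). Of interferon gamma response genes 0 of 19 were called by the same tools, 2 had an unadjusted p under 0.05, and the median was -0.28. MHC class I presentation gave 0 of 19 calls by each tool, 1 unadjusted p under 0.05 and a median of -0.20. MHC class II presentation had a median of 0.12, with H2-Ab1 at 1308 to 2672 CPM (median 1718) in treated and 1115 to 2264 CPM (median 1590.2) in abscopal libraries (log2 fold change 0.13 ± 0.21, adjusted p = 0.80). Cd80, a ligand of Cd28 on antigen-presenting cells, was higher, at 27.2 to 58.1 CPM (median 31.1) in treated and 14.5 to 23.5 CPM (median 17.8) in abscopal libraries with no overlap (log2 fold change 0.89 ± 0.19, adjusted p = 0.0068). In the dendritic cell list 1 of 18 was called higher, Cd24a, at 179 to 1593 CPM (median 567) in treated and 125 to 212 CPM (median 179.8) in abscopal libraries (log2 fold change 1.94 ± 0.33, adjusted p = 0.0016), which neutrophils carry too. Xcr1 and Clec9a, members of that list that mark type 1 dendritic cells, stood at a log2 ratio of -0.24 (adjusted p = 0.47) and -0.50 (adjusted p = 0.29). Of the 18 tested members, 7 had a positive and 11 a negative log2 fold change. Of B cell genes 0 of 13 were called by each tool, 2 had an unadjusted p under 0.05, and the median was -0.32.

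Of 38 cell cycle genes, 36 had a negative log2 fold change, the median was -0.40, and 2 fell, Cenpf (log2 fold change -0.66 ± 0.18, adjusted p = 0.038, and -0.54 without treated replicate 3, adjusted p = 0.11) and Ndc80 (log2 fold change -0.81 ± 0.23, adjusted p = 0.044, and -0.67 without treated replicate 3, adjusted p = 0.12), both kinetochore proteins. Cenpf kept its call in 4 of the 13 fits that each left out 1 library and Ndc80 in 3 of the 13 fits that each left out 1 library. Mki67, the proliferation marker, was at 51.0 to 74.1 CPM (median 63.3) in treated and 38.4 to 88.4 CPM (median 67.3) in abscopal libraries (log2 fold change -0.08 ± 0.16, adjusted p = 0.85), and Cdk1 at 13.5 to 30.2 CPM (median 25.7) in treated and 13.2 to 66.2 CPM (median 36.8) in abscopal libraries (log2 fold change -0.68 ± 0.28, adjusted p = 0.19). Chaperones of the heat shock and ER stress response had a median of -0.18 and 1 of 29 called higher, Dnajb9, an ER co-chaperone (log2 fold change 1.20 ± 0.26, adjusted p = 0.0082). Cholesterol synthesis genes had 1 of 17 called lower, Lss (log2 fold change -0.93 ± 0.27, adjusted p = 0.048), and a median of -0.21. Lss kept its call in 3 of the 13 fits that each left out 1 library, and DESeq2 and limma-voom called 0 members. Cytosolic ribosomal protein genes had 0 of 76 calls and mitochondrial messages 0 of 7, by edgeR, DESeq2 and limma-voom, with 1 and 0 under an unadjusted p of 0.05 and medians of -0.14 and -0.13.

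**Figure D4:**
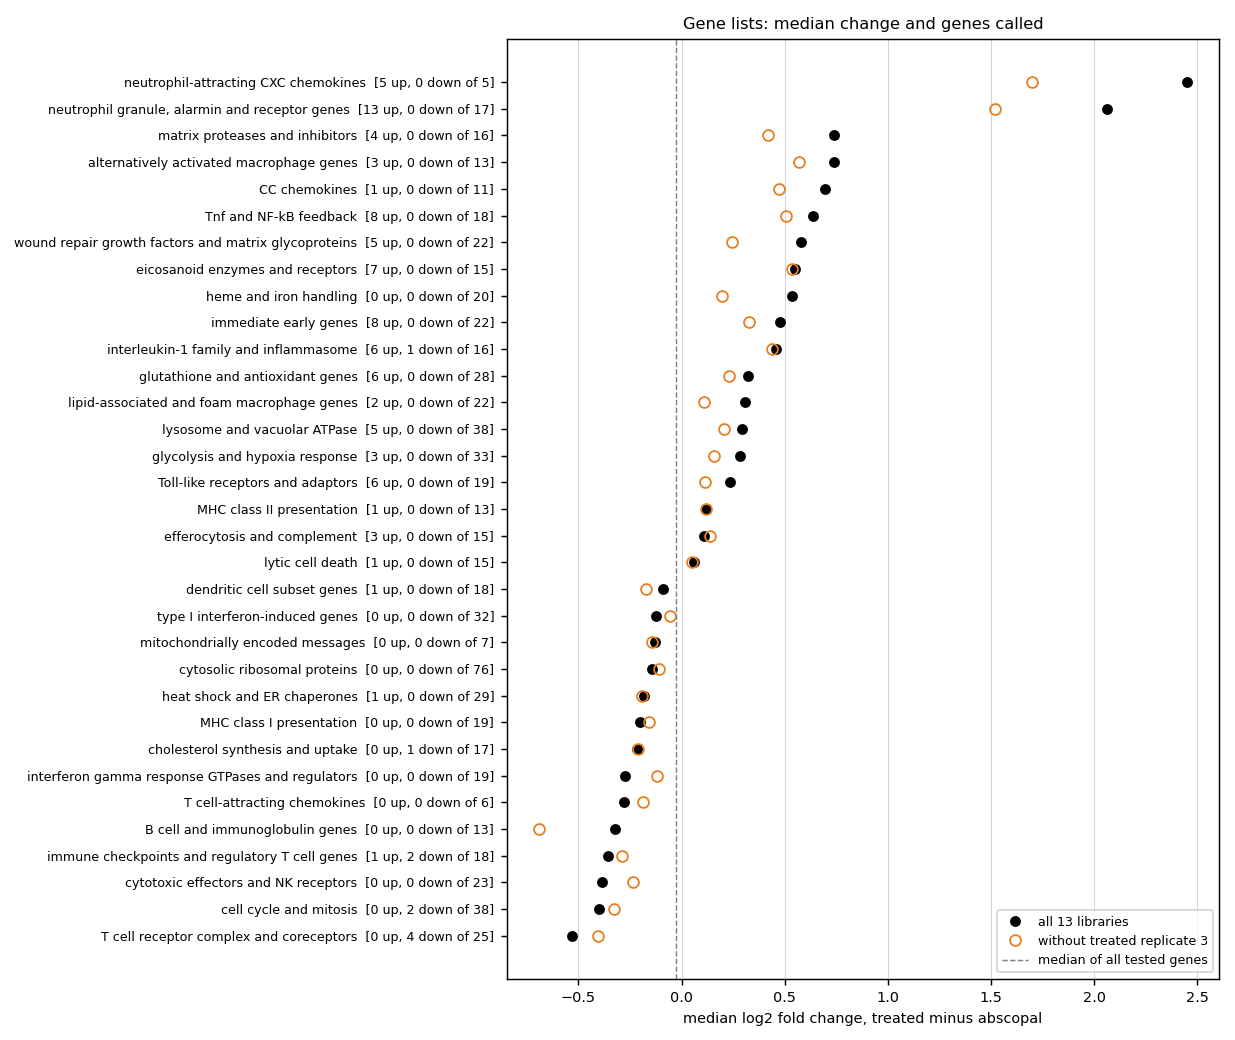
Median log2 fold change, treated minus abscopal, of the tested genes of 33 lists, with all 13 libraries (filled) and without treated replicate 3 (open), and in brackets the genes called higher (up) and lower (down) of those tested. The CXC chemokines lead with a median of 2.45, the T cell receptor list is lowest at -0.53, and the dashed line is the median of all tested genes at -0.03.

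Several rising genes with no overlap belonged to none of the lists. Slc1a2, a glutamate transporter known from astrocytes, was at 6.79 to 28.3 CPM (median 21.8) in treated and 1.41 to 5.95 CPM (median 2.62) in abscopal libraries (log2 fold change 2.81 ± 0.34, adjusted p = 0.00019, and 2.76 without treated replicate 3, adjusted p = 0.00045). Gpr84, a receptor for medium-chain fatty acids on activated myeloid cells, was at 4.32 to 41.0 CPM (median 20.02) in treated and 1.41 to 4.21 CPM (median 1.98) in abscopal libraries (log2 fold change 3.12 ± 0.44, adjusted p = 0.00049). Acot1, a cytosolic acyl-CoA thioesterase with close paralogs, was at 6.79 to 47.4 CPM (median 11.1) in treated and 1.41 to 3.12 CPM (median 1.84) in abscopal libraries (log2 fold change 3.10 ± 0.45, adjusted p = 0.00063). Rasip1, an effector of Ras-type GTPases known from endothelium, was at 8.02 to 73.5 CPM (median 45.8) in treated and 2.10 to 7.38 CPM (median 4.19) in abscopal libraries (log2 fold change 3.17 ± 0.42, adjusted p = 0.00034), while summed endothelial markers were at 77.8 to 146 CPM in treated and 71.8 to 144 CPM in abscopal libraries. Rasip1 (chr7:45627488-45639093, plus strand, GRCm38) overlaps Izumo1 on the same strand and Gm45437 and A030001D20Rik on the other. Slc1a2 lies at chr2:102658659-102790784 on the plus strand, with Gm13872 on the other. Ppm1n, a protein phosphatase, showed a log2 ratio of 2.71 (adjusted p = 0.00038), Echdc3 2.95 (adjusted p = 0.0028, and below the filter without treated replicate 3) and Ifitm5 2.55 (adjusted p = 0.0016), and Ifitm5 overlaps Gm45717 on the same strand. The long noncoding RNA 1110002J07Rik was at 5.55 to 40.6 CPM (median 12.3) in treated and 0.357 to 3.97 CPM (median 2.23) in abscopal libraries (log2 fold change 3.20 ± 0.51, adjusted p = 0.00095). Among called genes found in GENCODE vM21, 68 of 485 higher genes (14.0%) and 2 of 57 lower genes (3.51%) were not protein coding, against 9.40% of tested genes.

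The CD45- cells of day 3 tumors, which include the melanoma cells, were sorted and counted in a separate table, and their levels are given as a description of where the messages were found. Ptprc was at 0 to 1.54 CPM (median 0) in treated and 0 to 0.355 CPM (median 0) in abscopal libraries among CD45- libraries. Il1b, at 0 to 1.40 CPM (median 0) in treated and 0 to 0.660 CPM (median 0) in abscopal libraries, and Tgm2, at 0.349 to 6.72 CPM (median 1.12) in treated and 0 to 2.13 CPM (median 1.26) in abscopal libraries, were low there. Cxcl2 was at 1.40 to 41.6 CPM (median 4.32) in treated and 0 to 2.24 CPM (median 1.26) in abscopal libraries. Cxcl1 reached higher levels there, at 1.40 to 249.9 CPM (median 31.5) in treated and 0.948 to 13.9 CPM (median 7.86) in abscopal libraries. Nfkbia, which many cell types express, was at 151 to 1176 CPM (median 312) in treated and 154 to 250.2 CPM (median 224) in abscopal libraries of CD45- cells, and Egr1 at 67.7 to 357 CPM (median 129) in treated and 47.8 to 117 CPM (median 64.6) in abscopal libraries. These tables were scaled separately, so no test was run between the compartments.

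On day 7 the same contrast gave fewer calls. With 3 treated and 4 abscopal CD45+ libraries, edgeR called 0 genes, and 255 had an unadjusted p under 0.05. The 500 genes higher on day 3 had a median log2 fold change of 1.12 on day 3 and -0.02 on day 7, and the 58 lower genes -0.66 and 0.02, where the day 3 values are those that chose the genes. The difference between the days was tested directly in all 34 CD45+ libraries. It was called for 8 of 11251 genes (0.0711%), with 1195 under an unadjusted p of 0.05, and limma-voom called 0. Of the 8, 7 had been called higher on day 3, and Cebpe had too few counts on day 3 to be tested there. Tgm2 was at 316 to 397 CPM in the 3 treated and 385 to 549.9 CPM in the 4 abscopal libraries on day 7, and its effect was larger on day 3 by 1.55 ± 0.30 on the log2 scale, adjusted p = 0.0405. Without day 3 treated replicate 3 this difference was 1.38 and the call was lost (edgeR, adjusted p = 0.056). The call was also lost without day 7 treated replicate 1, 2 or 3 (adjusted p = 0.15, 0.091 and 0.20). Slc1a2 was at 1.04 to 1.63 CPM in the 3 treated and 0 to 14.6 CPM in the 4 abscopal libraries, and its effect differed by 4.53 ± 0.96 on the log2 scale, adjusted p = 0.0497. The other 6 were Egfr (4.44), Dhx40 (1.93), P2ry13 (2.64), Ppp1r3d (2.42), Pde6h (2.63) and Cebpe (3.79), as log2 differences between the days, named after their values were seen. For Cxcl2 the difference between the days was 1.89 ± 0.74 on the log2 scale, adjusted p = 0.33, and for Il1b it was 1.10 ± 0.37 on the log2 scale, adjusted p = 0.24, both short of the threshold. The count depended on single libraries and on the scaling, from 0 to 104 when 1 library was left out, with 104 reached without day 3 treated replicate 5 and 2 without day 3 treated replicate 3.

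**Figure D5:**
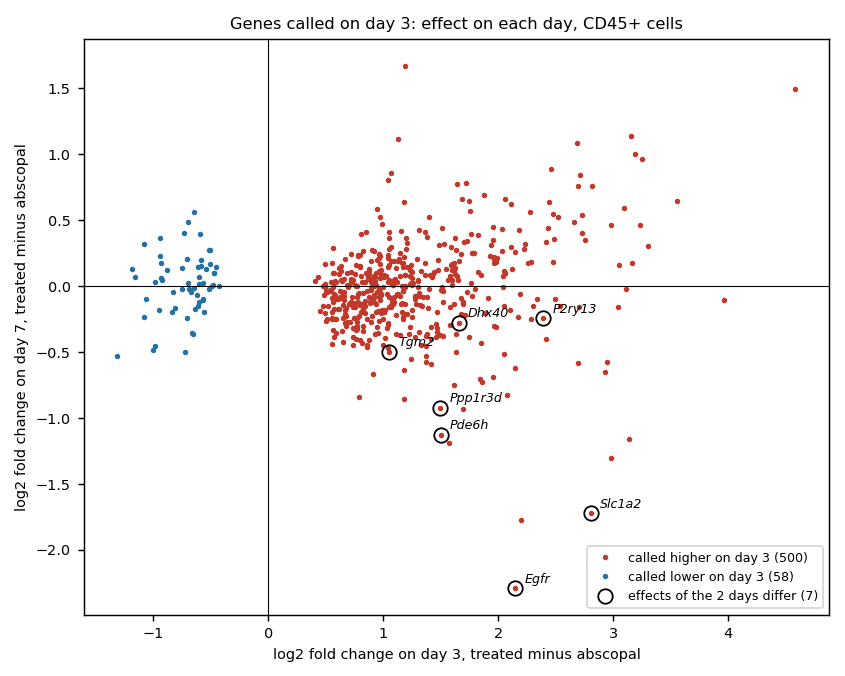
Log2 fold change on day 7 against that on day 3, treated minus abscopal, for the 558 genes called on day 3, with 1 point per gene and a ring around the 7 whose effects differed between the days. Genes called higher on day 3 scatter around 0 on day 7, with a median of -0.02.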

How the data were processed

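Tumors were dissociated with enzymes, CD45+ and CD45- cells were flow-sorted, and 3' mRNA libraries were sequenced (QuantSeq, which reads the 3' end of a message, so counts do not scale with length). The authors trimmed reads (Trim Galore 0.5.0), aligned them to GRCm38 (STAR 2.6.0), collapsed molecular identifiers and deposited raw counts per gene from featureCounts. The day 3 CD45+ table held 55487 named genes, 120 of them sharing a symbol with an earlier entry, and 1 unnamed entry that equals each column's total and was dropped. Depth was 1039007 to 2824959 counts per library.

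Counts were tested with edgeR 4.0.16 in R 4.3.3 (TMM, filterByExpr with a minimum count of 10 and total of 15, quasi-likelihood test), with all 17 day 3 libraries in 1 fit and Benjamini-Hochberg adjustment at 0.05, or all 34 CD45+ libraries for the difference between days. DESeq2 1.42.0, limma 3.58.1 (voom), other scalings, filters and sample sets were alternatives. Leaving out the 3 libraries that stood apart was added after the data were seen. Named genes were fixed genes, up to 12 rising and 12 falling called genes of at least 10 CPM with no overlap and the largest change, and up to 3 called genes of each list with the smallest p. Libraries, genes and lists were chosen with earlier results of these data known. Each list's result is a count and a median, with no set test. Promoter windows and positions came from RefSeq (GRCm38.p6) and GENCODE vM21. Pairs of day 3 CD45+ libraries were compared within each group, and no 2 of them agreed within sampling noise.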

Additional observations from a re-analysis of the deposited data

Results flagged for a closer look

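Libraries were compared within their group on the log2(CPM + 1) scale, by the gap of the highest or lowest library to its nearest neighbor as a share of the group's range. Of 330 sets of values, 18 passed Dixon's 95% limit, about as many as chance gives (1 in 20 sets). Treated replicate 3 accounted for 6. It was highest for Arg1 (gap 0.789 of the range, 2185 CPM against 465 CPM in the next library), Slc16a3 (0.640, 893 against 367 CPM) and Cd80 (0.630, 58.1 against 36.1 CPM), and lowest for Cd27 (0.841, 25.5 against 52.3 CPM), summed NK cell markers (0.740, 300.2 against 922 CPM) and summed fibroblast markers (0.730, 89.2 against 247 CPM). Arg1, an enzyme of neutrophils and macrophages, was high where neutrophil markers were highest, and the part of those markers in its value was not tested.

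Abscopal replicate 1 was lowest for Cxcl1 (0.636, 34.4 against 88.6 CPM), C5ar1 (0.775, 28.4 against 70.2 CPM), Ptgs1 (0.656, 0 against 1.84 CPM) and Spp1 (0.593, 308 against 468 CPM). In abscopal replicate 4, summed NK cell markers were lowest (0.664, 711 against 1144 CPM), and in abscopal replicate 6 Alox5 was (0.659, 0.5262 against 3.57 CPM). Summed endothelial markers were highest in treated replicate 1 (0.668, 146 against 95.9 CPM).

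The remaining sets were of control libraries. Control replicate 1 was highest for Smc4 (0.918, 358 against 307 CPM) and lowest for Bcl11b (0.882, 61.1 against 84.3 CPM) and Tlr6 (0.884, 1.85 against 11.4 CPM). Control replicate 3 was lowest for Cers4 (0.887, 19.6 against 29.9 CPM) and control replicate 4 for Ndc80 (0.916, 17.8 against 26.9 CPM).

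Among the named genes, the difference between treated and abscopal libraries differed between the days for Tgm2, larger on day 3 by 1.55 on the log2 scale (edgeR, adjusted p = 0.0405), and for Slc1a2, larger by 4.53 (adjusted p = 0.0497). Tgm2 lost this call without day 3 treated replicate 3 (1.38, adjusted p = 0.056). With library totals, limma-voom or only the treated and abscopal libraries, 0 genes passed this test.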

How the results depend on the processing

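Against 558 called genes (500 higher, 58 lower), edgeR called 1022 (844 higher, 178 lower) with no filter on low counts, 365 (21 lower) with only the treated and abscopal libraries in the fit, and 221 (197 higher, 24 lower) without treated replicate 3 and abscopal replicates 1 and 4. Limma-voom called 35 lower genes, and library totals gave 89. With 1 library left out, calls ranged from 264 (without treated replicate 3) to 862 (without treated replicate 5), 252 to 725 higher and 12 to 137 lower. DESeq2 called 719, DESeq2's size factors within edgeR 571, and the filter meant to be stricter, which kept 10446 genes, 546. With a replicate block there were 293 calls (278 higher, 15 lower). No label says what a replicate number marks, and the numbers were not taken to pair the samples: same-numbered libraries deviated together with correlations of 0.020 to 0.361, and 1 of 6 treated libraries correlated best with its own number.

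The difference between the days was called for 8 genes, and for 0 with library totals, 0 by limma-voom, 0 with only treated and abscopal libraries, 287 with no filter, and 0 to 104 with 1 library left out. Signs turned for Isg15 (0.11, and -0.18 to 0.27 with 1 library left out), Gpnmb (-0.43, and -0.61 to 0.0017) and H2-Ab1 (0.13, and -0.0030 to 0.23), none of them called. Without the 3 libraries that stood apart, Isg15 was at -0.056 and Gpnmb at 0.0030. The causes were not tested. At a lowest depth of 1039007 counts, genes of a few CPM rest on few reads.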
